A study of Mus musculus with 15 samples.

Results

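Cish, Socs1, Socs2, Socs3, Pim1 and Pim2 are cytokine-induced genes whose products limit or relay the signal that switched them on, and their transcript levels were followed through 15 libraries of mouse regulatory T (Treg) cells. The genes were chosen by name, as the rows of the deposited tables whose Ensembl identifier carries these symbols in GENCODE vM21. All 6 were found among the 30949 genes listed in every library. All 6 also passed the filter of at least 1 TPM in at least 2 libraries, which left 29989 genes for testing.

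Interleukin-2 (IL-2) binds a receptor whose chains carry the kinases JAK1 and JAK3, and these phosphorylate the transcription factor STAT5, which moves to the nucleus and activates its target genes. CISH and the SOCS proteins are targets that act back on the pathway: they bind phosphorylated receptors or the JAK kinases through an SH2 domain and, through their SOCS box, recruit a ubiquitin ligase. PIM kinases are targets of another kind, since they are active as soon as they are made and support survival and growth. Treg cells express Foxp3 and hold other immune cells in check. They make little IL-2 themselves and depend on IL-2 from other cells, and they need SOCS1 to keep cytokine signals in bounds.

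The cells came from female Foxp3YFP-Cre/+/Dock8flox/flox mice of the C57BL/6 strain, and the series title concerns DOCK8, IL-2 signalling and the immune synapse. Foxp3 lies on the X chromosome, so such females carry YFP+ Treg cells that express Cre (labelled DOCK8 deficient, called KO here) beside YFP- Treg cells that do not (labelled WT). Cre in this allele is made where Foxp3 is active, and cells of both genotypes carry the floxed Dock8 alleles. CD25+ CD39+ cells of spleen and lymph nodes were sorted and cultured for 16 h, in medium alone (unstimulated) or with beads coated with antibodies to CD3 and CD28, at 1 bead per cell. There were 4 WT and 6 KO libraries in the unstimulated groups, and 3 WT and 2 KO libraries in the bead groups. Libraries are called by the number in their title, and 1 unstimulated library of each genotype has none (unnumbered). The KO cells were also the cells with YFP and Cre and with the other X chromosome in use, so these cannot be told apart from the loss of DOCK8. Samples are described as independent, but nothing states that each came from its own mouse or culture, so a p-value here reflects the spread among these libraries.

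Values are TPM, a length-corrected share of each library's transcripts from which read depth cannot be recovered, and the depth is therefore unknown. In bulk samples fewer cells of a type and less RNA per cell cannot be told apart. Dock8 itself, read over the whole gene, had 9.15 to 22.0 TPM in unstimulated WT and 6.70 to 11.9 TPM in unstimulated KO libraries, ranges that overlapped. With beads it had 8.71 to 10.1 TPM in WT and 5.82 and 7.90 TPM in KO libraries, which did not overlap. The summed level of 8 Treg markers, Foxp3 among them, was 599 to 849 TPM in unstimulated WT and 336 to 529 TPM in unstimulated KO libraries, against 1362 to 1442 TPM and 1231 to 1397 TPM with beads. The 8 T cell markers summed to 1685 to 3412 TPM in unstimulated WT and 1055 to 2029 TPM in unstimulated KO libraries, and to 1973 to 2741 TPM and 2642 to 3190 TPM with beads. The 8 B cell markers summed to at most 43.4 TPM, and the 8 markers of CD8 T and NK cells to at most 59.5 TPM. Listed markers of neutrophils, red cells, stroma and myeloid cells summed to at most 54.0, 33.6, 86.4 and 107.5 TPM. Their part in the results was not tested. A set of 20 abundant predicted genes took 18.7 to 39.5% of TPM in unstimulated WT, 30.1 to 52.3% in unstimulated KO and 10.2 to 21.7% in bead libraries. Because such a share lowers every other gene's TPM, each difference was also computed after scaling to 815 abundant genes (called scaled below). Between unstimulated groups this moved the median log2 difference of all genes tested from -0.11 to 0.12.

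Promoter windows are printed here for the members whose window held a match to a STAT-type or an IRF-type motif. They are RefSeq windows on GRCm38.p6 that run from 250 bases before the transcription start to 50 bases from it, read 5′ to 3′ on the gene's strand. STAT dimers bind TTCNNNGAA, which reads the same on both strands. The IRF-type motif, which interferon regulatory factors bind, was taken as GAAA, any 2 bases and GAAA again. It was searched on both strands and does not overlap the first motif in these windows. Capitals mark the matches. Cish (chr9:107296409-107296708, plus strand) held a pair of STAT-type matches just after its start, at positions 1 to 9 and 12 to 20. Socs3 (chr11:117969317-117969616, minus strand) held 1, at -154 to -146. Socs1 (chr16:10785487-10785786, minus strand) held 2 overlapping IRF-type matches, at -83 to -74 and -77 to -68. By the gene coordinates given below, the Cish and Socs3 windows lie wholly inside the annotated genes, downstream of their annotated 5′ ends.
Cish: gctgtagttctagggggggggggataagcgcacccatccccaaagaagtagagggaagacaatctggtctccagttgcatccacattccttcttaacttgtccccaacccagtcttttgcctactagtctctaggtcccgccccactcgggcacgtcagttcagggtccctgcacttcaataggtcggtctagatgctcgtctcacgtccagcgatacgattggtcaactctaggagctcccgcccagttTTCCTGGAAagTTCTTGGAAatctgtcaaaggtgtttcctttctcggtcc
Socs1: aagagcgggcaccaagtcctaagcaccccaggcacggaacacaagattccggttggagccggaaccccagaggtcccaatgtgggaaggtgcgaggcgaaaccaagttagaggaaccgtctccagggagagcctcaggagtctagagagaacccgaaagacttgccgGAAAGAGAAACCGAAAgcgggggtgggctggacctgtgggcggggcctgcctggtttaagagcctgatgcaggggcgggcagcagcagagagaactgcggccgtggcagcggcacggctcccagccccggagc
Socs3: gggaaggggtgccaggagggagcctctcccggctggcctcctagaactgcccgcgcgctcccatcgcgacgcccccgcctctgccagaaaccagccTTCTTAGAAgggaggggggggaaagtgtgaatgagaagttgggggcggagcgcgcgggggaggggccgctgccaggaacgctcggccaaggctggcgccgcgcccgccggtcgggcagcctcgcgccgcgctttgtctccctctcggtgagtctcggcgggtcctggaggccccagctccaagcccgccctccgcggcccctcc
Of 32851 windows of this length, 8.30% held at least 1 STAT-type match and 0.457% at least 2, while 3.44% held at least 1 IRF-type match and 0.225% at least 2. Pim1, with 2 annotated starts, and Pim2 had neither motif in their windows, and RefSeq windows were matched for 5 of the 6 genes, Socs2 not among them. A match describes the letters of the window and does not show that a factor binds there.

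**Figure D1:**
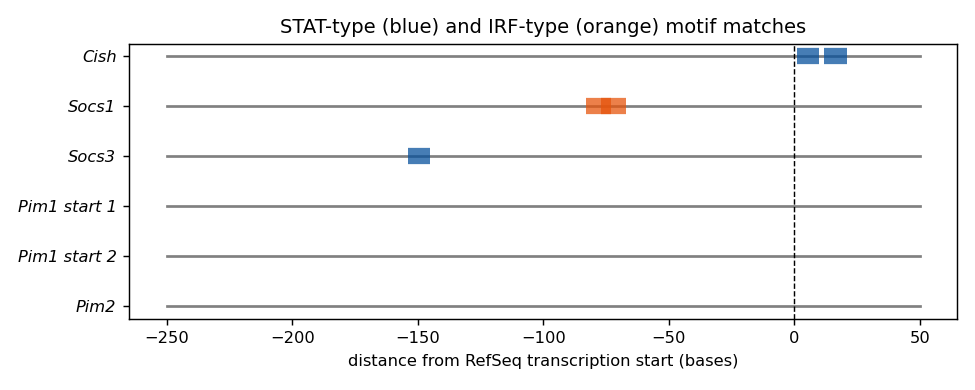
Motif matches in the promoter windows of 5 members. The x axis gives the distance from the RefSeq transcription start in bases, each grey line is 1 window, blue blocks are TTCNNNGAA matches and orange blocks IRF-type matches. The Cish matches lie within the first 20 bases from its RefSeq start, while those of Socs1 and Socs3 lie before their RefSeq starts.

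With beads, Cish, Socs1, Socs2 and Pim2 rose in WT cells and again in KO cells, while Socs3 and Pim1 passed the test in neither. Cish had the largest change of the 6, from a mean of 6.52 to 199.9 TPM in WT cells (30.7-fold) and from 5.04 to 160.1 TPM in KO cells (31.8-fold). Thus 4 of 6 members were called higher with beads in WT, beside 4.60% of all genes tested, and 4 of 6 in KO, beside 5.95%. In WT, 5 of 6 had bead libraries all above the unstimulated ones, beside 8.61% of all genes, with Pim1 as the exception. In KO it was also 5 of 6, beside 11.2%, with Socs3 as the exception. The median log2 difference over the members was 2.58 in WT and 2.60 in KO, beside -0.44 and -0.23 over all genes tested. Over the 4284 genes averaging 20 TPM or more it was 0.13 in WT and 0.68 in KO. When scaled, the KO medians were 2.16 for the members and 0.22 for those 4284 genes.

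Between genotypes no member was called (limma, adjusted p under 0.05). Without beads this was 0 of 6, beside 0.0734% of all genes, and no member's groups were apart, beside 1.27% of all genes with every KO library below WT. With beads it was 0 of 6, beside 0.00333% of all genes. There, however, Socs1, Socs2, Socs3 and Pim1 had both KO libraries below every WT library, 4 of 6, beside 8.02% of all genes and 19.5% of those averaging 20 TPM or more. Of the 1378 genes called higher with beads in WT, a set picked with the same WT bead values, 43.3% had both KO libraries below every WT library. The whole transcriptome gave few calls in these comparisons, 22 genes without beads and 1 with beads, beside 3386 and 868 genes at an unadjusted p under 0.05. The difference between the bead responses of KO and WT cells was called for 0 of 6 members, beside 0.00333% of all genes, and 1247 genes had an unadjusted p under 0.05. If no gene differed, a share of 0.05 of the 29989 genes tested would be expected under that p. That share is more than the 868 genes with beads and the 1247 genes for the difference. Log2 differences below are on the log2(TPM + 1) scale, which understates the change of low genes, and adjusted p-values are from limma over all genes tested.

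**Figure D2:**
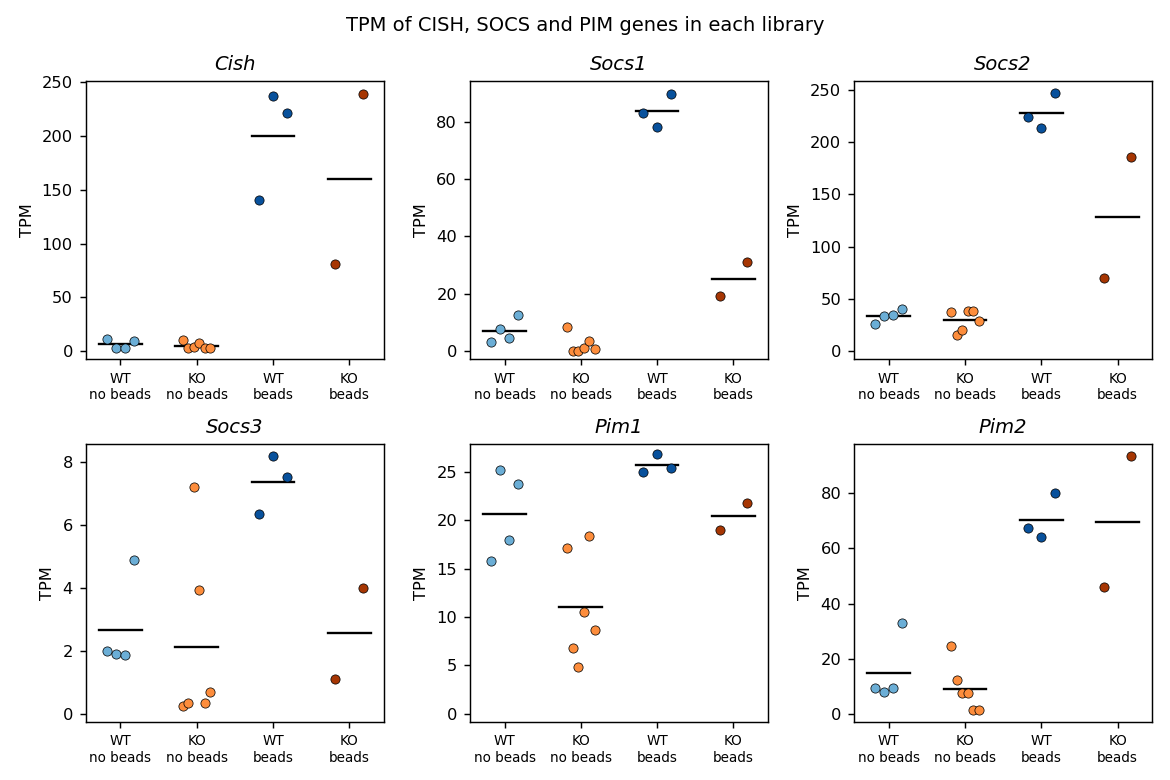
TPM of each member in each of the 15 libraries. The y axis is TPM and starts near 0, each point is 1 library, and bars are group means, left out for Socs1 in unstimulated KO, where 2 libraries are listed at 0. Cish, Socs1, Socs2 and Pim2 are high in the bead groups, and for Socs1 both KO bead points (19.0 and 31.1 TPM) lie far below the 3 WT bead points (78.2 to 89.7 TPM).

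Cish (ENSMUSG00000032578; mm10, chromosome 9, 107296026 to 107302784, plus strand) encodes an SH2 protein that restrains STAT5 signalling from the IL-2 receptor. Unstimulated WT libraries had 11.5 (unnumbered), 2.79, 2.90 and 8.89 TPM in libraries 1 to 3, and unstimulated KO libraries had 2.31 to 9.96 TPM with a median of 3.55. With beads the WT libraries had 140.9, 237.5 and 221.4 TPM and the KO libraries 80.9 and 239.4 TPM. The bead and unstimulated libraries were thus far apart in each genotype, and KO library 5 was the highest of all while KO library 4 was the lowest with beads. The log2 difference with beads was 4.91 ± 0.54 in WT (SE; adjusted p = 0.000138) and 4.68 ± 0.58 in KO (adjusted p = 0.000243). It placed Cish 18th in WT and 41st in KO of 29989 genes from the highest. KO against WT gave -0.26 without beads (adjusted p = 0.897; 0.045 when scaled) and -0.48 with beads (95% interval -1.86 to 0.90, adjusted p = 1). Without KO bead library 4 the latter was 0.29. The Cish gene overlaps the opposite-strand pseudogene Gm17040, which had 0 to 3.83 TPM, and whether counting used strand is not given in the sources used here.

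Socs2 (ENSMUSG00000020027; chromosome 10, 95385362 to 95417180, minus strand), best known for limiting growth hormone signalling and also a STAT5 target, was the most abundant member at rest. Its unstimulated WT libraries had 25.9, 33.5, 34.3 and 40.1 TPM (unnumbered and 1 to 3), and unstimulated KO libraries ran from 15.6 to 38.2 TPM with a median of 33.3. With beads it reached 224.2, 213.3 and 246.9 TPM in WT but 70.0 and 186.0 TPM in KO libraries. Without beads the genotypes overlapped, although KO libraries 1 and 2 (15.6 and 20.3 TPM) were below every WT library, and with beads both KO libraries lay below the lowest WT library. In the fit, Socs2 rose by 2.75 ± 0.37 with beads in WT (adjusted p = 0.000617) and by 1.98 ± 0.40 in KO (adjusted p = 0.00659), 6.82-fold and 4.30-fold in mean TPM. The KO difference was 1.51 when scaled. KO against WT with beads was -0.99 ± 0.45 (95% interval -1.94 to -0.036, unadjusted p = 0.0429, adjusted p = 1), and without beads it was -0.22 (adjusted p = 0.864; 0.15 when scaled). With KO library 5 as the lone KO bead library, the value with beads was -0.29, and with library 4 alone it was -1.69. The difference between the bead responses was -0.77 ± 0.55 (95% interval -1.94 to 0.40, adjusted p = 0.999). It was -1.24 ± 0.50 when scaled (adjusted p = 1) and -1.23 with median-ratio scaling, and was called in neither.

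Socs1 (ENSMUSG00000038037; chromosome 16, 10782240 to 10785536, minus strand) encodes the SOCS protein that blocks JAK kinases directly and limits interferon and IL-2 signals. Unstimulated WT libraries had 3.25, 7.64, 4.53 and 12.6 TPM (unnumbered and 1 to 3). Of the unstimulated KO libraries the unnumbered library had 8.21 TPM, libraries 1 and 2 were listed at 0, and libraries 3, 4 and 5 had 0.962, 3.37 and 0.555 TPM. So 4 of the 6 KO libraries were below every WT library, and the unnumbered KO library was above 3 of the 4 WT libraries.

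With beads Socs1 had 83.0, 78.2 and 89.7 TPM in the WT libraries, a narrow range, and 19.0 and 31.1 TPM in the KO libraries. The highest KO value was under the lowest WT value, and the WT mean was 3.34 times the KO mean. Among the members this was the widest gap between genotypes with beads. The log2 difference of KO against WT was -1.74 ± 0.80 with beads (95% interval -3.44 to -0.038, unadjusted p = 0.0457, adjusted p = 1), 285th of 29989 genes from the lowest. Without beads it was -1.70 ± 0.56 (95% interval -2.90 to -0.50, unadjusted p = 0.00854, adjusted p = 0.269), 449th from the lowest. Scaled, the values were -1.84 and -1.54. No setting brought an adjusted p under 0.05, the range being 0.0639 to 0.757 without beads and 0.205 to 1 with beads.

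Socs1 rose with beads by 3.54 ± 0.67 in WT (adjusted p = 0.00396), 11.9-fold in mean TPM, and by 3.51 ± 0.71 in KO (adjusted p = 0.00680). The difference between the bead responses was -0.034 ± 0.98, and its 95% interval of -2.11 to 2.05 allows a difference of either sign. The unstimulated difference of KO against WT behind it moved with the setting, from -3.03 with a pseudocount of 0.1 TPM to -0.77 without the 4 KO libraries that had over 40% of TPM in predicted genes. With a pseudocount of 0.1 TPM the WT call was lost (3.74, adjusted p = 0.0643) and the difference between responses turned to 1.26, with 2 KO libraries listed at 0.

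Socs3 (ENSMUSG00000053113; chromosome 11, 117966079 to 117970047, minus strand), the inhibitor of STAT3 signals from the IL-6 receptor family, was the least abundant member in every group. Unstimulated WT libraries had 2.00, 1.89, 1.86 and 4.88 TPM (unnumbered and 1 to 3), and unstimulated KO libraries ran from 0.246 to 7.22 TPM with a median of 0.522. In KO, 4 of 6 libraries were under 1 TPM, while library 2 had the highest unstimulated value of all. With beads it had 6.35, 8.18 and 7.51 TPM in WT, each above the unstimulated WT libraries, and 1.12 and 3.99 TPM in KO libraries, which lay inside the unstimulated KO range. The log2 difference with beads was 1.26 ± 0.64 in WT (95% interval -0.096 to 2.61, adjusted p = 0.225) and 0.49 ± 0.68 in KO (95% interval -0.96 to 1.94, adjusted p = 0.738). KO against WT was -1.36 ± 0.76 with beads (adjusted p = 1), with both KO libraries below WT, and -0.59 ± 0.54 without (adjusted p = 0.746). Single libraries moved both: the first was -0.74 without KO bead library 4, and the second -0.33 without WT library 3 and -0.95 without KO library 2.

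Pim1 (ENSMUSG00000024014; chromosome 17, 29490753 to 29496112, plus strand) encodes the founding PIM kinase. It moved least with beads in WT cells. Unstimulated WT libraries had 15.7, 25.2, 17.9 and 23.8 TPM (unnumbered and 1 to 3) and the WT bead libraries 24.9, 26.8 and 25.4 TPM. The lowest bead value was below the highest unstimulated value, and the log2 difference of 0.33 ± 0.39 (95% interval -0.51 to 1.16) had an adjusted p of 0.636. Unstimulated KO libraries ran from 4.78 to 18.4 TPM with a median of 9.54, and KO bead libraries had 19.0 and 21.8 TPM, all above the unstimulated ones. That difference of 0.96 ± 0.42 was not called (adjusted p = 0.194; 0.52 when scaled). KO against WT without beads was -0.96 ± 0.33 (95% interval -1.66 to -0.25, unadjusted p = 0.0110, adjusted p = 0.291) and -0.61 when scaled. With beads it was -0.32 ± 0.47 (adjusted p = 1), and both KO libraries were below WT. The opposite-strand gene Gm26885 overlaps its first bases and had 0 to 2.64 TPM.

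Pim2 (ENSMUSG00000031155; chromosome X, 7878262 to 7883432, plus strand) encodes a second PIM kinase and is the only X-linked member, so for this gene the X chromosome in use differs between the genotypes. Unstimulated WT libraries had 9.36, 7.89, 9.30 and 33.0 TPM (unnumbered and 1 to 3), and unstimulated KO libraries ran from 1.25 to 24.6 TPM with a median of 7.49. With beads it had 67.3, 64.0 and 80.2 TPM in WT and 46.0 and 93.4 TPM in KO libraries. Every bead library was above every unstimulated one, and the KO bead libraries lay on either side of the WT range. Pim2 rose by 2.41 ± 0.73 in WT (adjusted p = 0.0454) and by 3.23 ± 0.78 in KO (adjusted p = 0.0187), 4.74-fold and 7.69-fold in mean TPM. Unstimulated WT library 3 stood far above the others, and without it the WT rise was 2.86 (adjusted p = 0.0260) and 7.97-fold. The WT call is close to the threshold and was lost in 9 of 18 alternatives, among them each WT bead library left out (2.31 to 2.47). KO against WT was -0.91 ± 0.62 without beads (adjusted p = 0.628), -0.61 when scaled and -0.47 without WT library 3, and it was -0.096 ± 0.87 with beads (95% interval -1.96 to 1.77, adjusted p = 1).

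**Figure D3:**
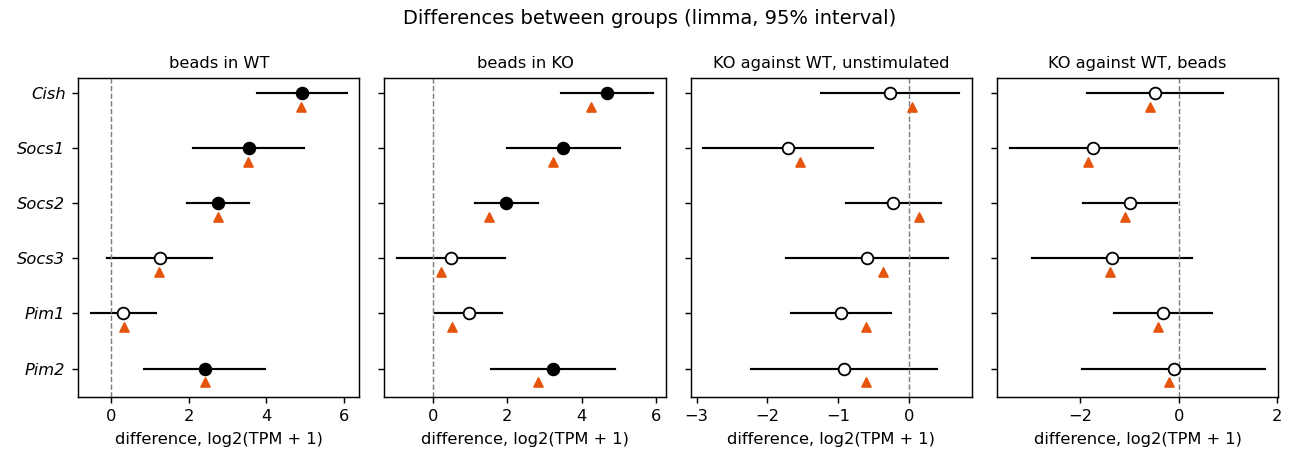
Log2 differences of each member in 4 comparisons. The x axis is the difference in log2(TPM + 1), circles with bars are limma estimates with 95% intervals, filled where the adjusted p is under 0.05, and triangles are scaled values. Filled circles appear for Cish, Socs1, Socs2 and Pim2 with beads in WT and KO, and for no member between genotypes.

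In order of level, Socs2 led at rest with a mean of 33.4 TPM in WT and 29.8 TPM in KO, above 91.1% and 92.2% of the genes tested. With beads, Socs2 (228.1 TPM) and Cish (199.9 TPM) led in WT and Cish (160.1 TPM) and Socs2 (128.0 TPM) in KO. In WT, Cish was 5th of the 6 at rest and 2nd with beads. For Cish and Pim2 the bead groups of both genotypes overlapped, and so did their unstimulated groups, so only the step between unstimulated and bead libraries separated ranges. For Socs1 and Socs2 there was a further step, KO with beads below WT with beads.

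The 2 KO bead libraries differed from each other. Library 4 was lower than library 5 for 6 of 6 members, with ratios of library 5 to 4 of 2.96 for Cish, 1.64 for Socs1, 2.66 for Socs2, 3.58 for Socs3, 1.15 for Pim1 and 2.03 for Pim2. Over all genes tested, 46.6% were lower in library 4, as were 55.3% of the 4284 genes averaging 20 TPM or more and 73.5% of the 1378 genes called higher with beads in WT. Genes induced by the T cell receptor were split, with 7 of 15 lower in library 4. Among the members, Socs1 and Pim1 varied least between the 2 libraries, and for Socs1 both were low.

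**Figure D4:**
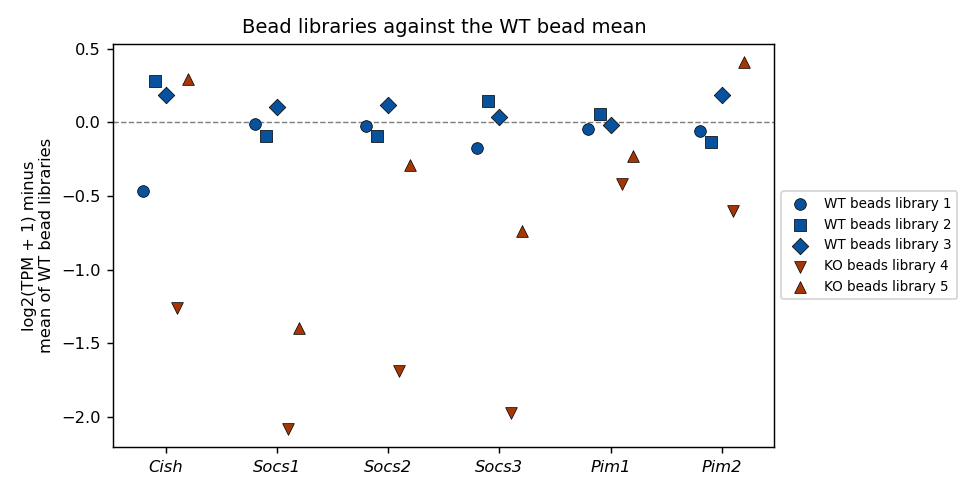
Each bead library against the mean of the WT bead libraries. The y axis is the difference in log2(TPM + 1), blue symbols are the 3 WT libraries and brown symbols the 2 KO libraries. KO library 4 is below KO library 5 for each member, and for Socs1 both KO libraries lie far below 0 (-2.08 and -1.40).

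The KO call with beads rests on these 2 libraries. Without KO bead library 4, Socs1 (3.85, adjusted p = 0.0566) and Pim2 (3.73, adjusted p = 0.0890) were no longer called. Without KO bead library 5, Socs1 (3.17, adjusted p = 0.138), Socs2 (1.28, adjusted p = 0.237) and Pim2 (2.73, adjusted p = 0.261) were lost, the lone library being assumed to vary like the other groups. Cish remained called in both cases. Leaving out the 4 unstimulated KO libraries with over 40% of TPM in predicted genes also left Cish alone called, with Socs1 at 2.58 (adjusted p = 0.0734), Socs2 at 1.57 (adjusted p = 0.0682) and Pim2 at 2.19 (adjusted p = 0.110).

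The machinery around the members was read from lists of known genes. Beside the counts below, 4.60% of the 29989 genes tested were called higher with beads in WT and 5.95% in KO. Called lower with beads were 1988 genes in WT and 646 in KO. Of 7 genes for the IL-2 receptor, its JAK kinases and STAT5, 5 rose with beads in WT and 5 in KO: Il2ra, the high-affinity receptor chain (4.00 in WT, adjusted p = 6.16e-05; 3.35 in KO, adjusted p = 0.000205), Il2rb, Il2rg, Jak3 and Stat5a. Jak1 and Stat5b were not called, though 1 gene of the list was called lower with beads in WT when scaled. None was called between genotypes. The list's median for KO against WT was -0.74 without beads (-0.38 when scaled) and -0.18 with beads, beside -0.75 (-0.49 when scaled) and -0.74 for the members. Without beads the median of the 4284 genes averaging 20 TPM or more was -0.44 (-0.080 when scaled), and that of 8 T cell markers was -0.84 with 8 of 8 below 0. Il2ra, whose product CD25 was also a marker of the sort, had 97.1 and 139.6 TPM in KO and 170.8 to 227.2 TPM in WT bead libraries, with no overlap (log2 difference -0.69, adjusted p = 1). Of the 7 genes, 3 had both KO bead libraries below every WT bead library and 1 had both above. Over all genes tested 8.02% were below and 17.45% above. Over the 1378 genes called higher with beads in WT, 43.3% were below and 2.18% above.

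Among the other members of both families, Socs4, Socs5, Socs6, Socs7 and Pim3, 0 of 5 were called in any comparison. Their median with beads was -0.25 in WT and -0.17 in KO. Pim3, the remaining PIM kinase, came nearest, at 2.11 in WT (adjusted p = 0.0738) and 2.21 in KO (adjusted p = 0.0993). A list of 6 genes for elongin and cullin ubiquitin ligases, the kind that SOCS boxes recruit, held Elob, Eloc, Cul5, Cul2, Rnf7 and Rbx1. They are not all subunits of 1 ligase. With beads in WT 3 of 6 were called higher: Elob (1.71, adjusted p = 0.00923), Rbx1 (1.60, adjusted p = 0.00539) and Rnf7 (1.01, adjusted p = 0.0461). In KO these and Eloc were called, 4 of 6 (3 of 6 when scaled). Elob and Eloc encode the elongins that hold the SOCS box.

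Of 32 other known STAT5 targets, a list that shares Il2ra with the receptor list, 14 rose and 1 fell with beads in WT. In KO 15 rose, or 14 when scaled. Irf4, a transcription factor of activated T cells, rose by 5.53 in WT (adjusted p = 7.50e-06) and 5.16 in KO (adjusted p = 2.26e-05). Myc, the growth regulator, rose by 4.59 (adjusted p = 6.16e-05) and 4.88 (adjusted p = 4.23e-05). Bcl6, a repressor that STAT5 is known to lower, fell by 1.42 in WT (adjusted p = 0.0490), close to the threshold. In KO 0 of the 32 genes were called lower, Bcl6 included. The T cell receptor has its own list, which shares 4 genes with this one (Irf4, Myc, Tnfrsf4 and Tnfrsf9), and of its 15 genes tested 14 rose in WT and 13 in KO. Beads engage that receptor, and its part in the rise of the members was not tested apart from IL-2. No gene of either list was called between genotypes. The medians for KO against WT with beads were -0.13 for the STAT5 targets and 0.18 for the T cell receptor genes, beside 0.13 over all genes tested. Of the 15 T cell receptor genes, 9 had both KO bead libraries above every WT bead library and 3 had both below. Of the 32 STAT5 targets, 4 had both above and 9 both below. Over all genes tested these shares were 17.45% above and 8.02% below. They were 17.8% above and 19.5% below over the 4284 genes averaging 20 TPM or more. Over the 1378 genes called higher with beads in WT, picked with the same WT bead values, they were 2.18% and 43.3%. Foxp3, the gene that also carries YFP-Cre in the KO cells, had 88.6 to 105.8 TPM in WT and 42.2 and 42.7 TPM in KO bead libraries (log2 difference -1.19, adjusted p = 1), and without beads its difference was -1.71 (unadjusted p = 6.03e-05, adjusted p = 0.0646).

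Of 14 substrates and partners of the PIM kinases, 6 rose and 1 fell with beads in WT. In KO 5 rose, and when scaled 5 rose and 1 fell. Myc is on this list too. Eif4b, a translation factor that PIM kinases phosphorylate, rose by 1.39 (adjusted p = 0.00379) and 1.82 (adjusted p = 0.00106). Cdkn1b, the cell cycle inhibitor p27 that PIM kinases phosphorylate, fell by 2.08 in WT (adjusted p = 0.00584) and was -1.23 in KO (adjusted p = 0.117). Of 13 other negative regulators of JAK-STAT signalling, 2 rose in each genotype, the phosphatases Ptpn6 (2.10 in WT, adjusted p = 0.00105) and Ptpn2 (1.47 in WT, adjusted p = 0.0103). When scaled, 1 of the 13 was called higher and 1 lower with beads in KO.

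Of 10 genes of the STAT3 route, which Socs3 limits, 3 rose and 2 fell with beads in WT. In KO 3 rose and 0 fell (2 rose and 1 fell when scaled), and 0 were called between genotypes. Il6ra, the IL-6 receptor chain, fell by 1.55 in WT (adjusted p = 0.00413), and Junb, a transcription factor that STAT3 induces, rose by 1.93 (adjusted p = 0.00352).

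**Figure D5:**
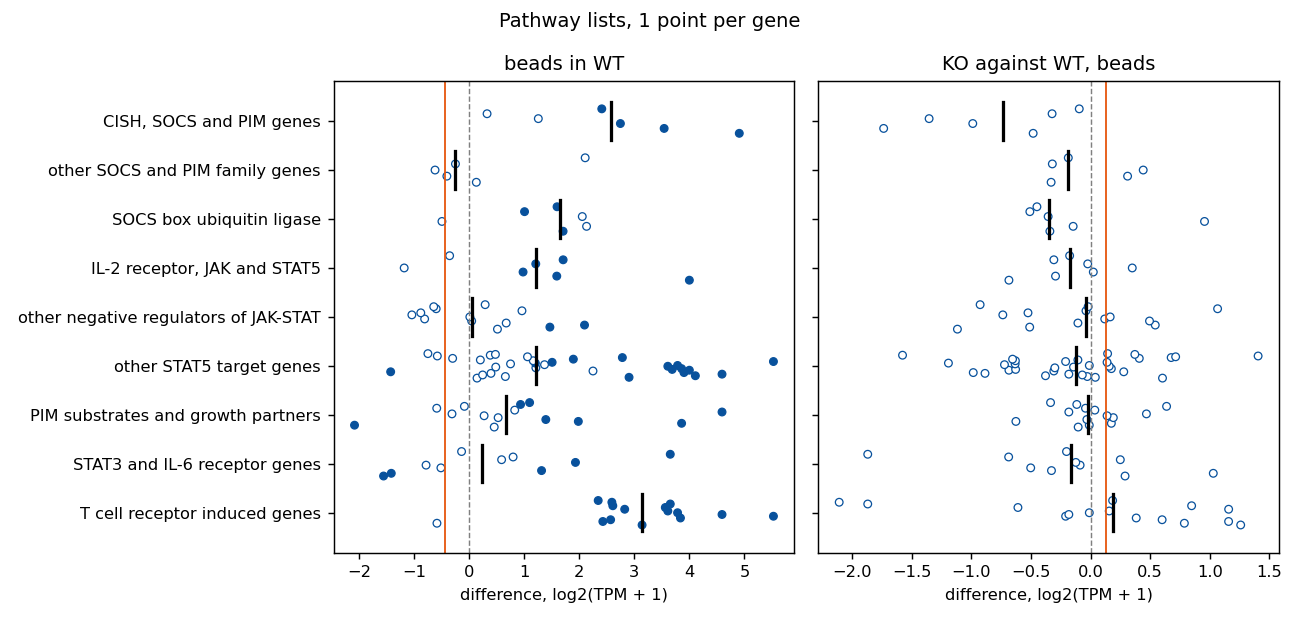
Log2 differences of the members and of the pathway lists, with beads in WT (left) and for KO against WT with beads (right). The x axis is the difference in log2(TPM + 1), each point is 1 gene, filled where the adjusted p is under 0.05, black bars are list medians and the orange line is the median of all genes tested. The member median is 2.58 on the left, and no point is filled on the right.

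Across all 15 libraries the members' profiles were compared by Pearson correlation of log2(TPM + 1), as a description. The libraries split by bead treatment, and each pair of values shares its library's composition. Cish and Socs2 correlated at 0.94, Socs1 and Socs2 at 0.930 and Cish and Socs1 at 0.875. Within the 10 unstimulated libraries these were 0.370, 0.751 and 0.408. Socs1 and Pim1 kept a high value, 0.868 over 15 and 0.950 over the 10 unstimulated libraries, while Socs3 correlated with the other 5 at 0.247 to 0.594 over all 15. Among 3096 abundant genes the profiles most like Cish included those of Fkbp4 (0.985) and Tuba1b (0.982). For Socs1 they were Chordc1 (0.965), St13 (0.965) and Ifi47 (0.964), and for Socs2 Rps27l (0.971), Phf5a (0.963) and Fam162a (0.955). Socs3 had lower values, with Ilf2 at 0.822, Rbm17 at 0.807 and Uqcrc2 at 0.802. For Pim1 they were Dda1 (0.945), Icos (0.926) and Thy1 (0.920), and for Pim2 Psmc6 (0.955), Mcm6 (0.953) and Park7 (0.951).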

How the data were processed

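RNA of 15 sorted and cultured Treg samples was made into Smart-Seq2 libraries. The authors deposited 1 table per library of Ensembl gene identifiers with values in TPM, as the file names give the unit. The submitters' processing notes name STAR, Salmon, DESeq2 and mm10, without versions or roles. The 30949 genes listed in both the unstimulated and the bead tables were joined and named with GENCODE vM21. Each library's TPM summed to between 819697 and 938139. Depth is unknown, so no count model and no counting interval was used.

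Genes reaching 1 TPM in 2 or more libraries, 29989 in all, were kept. The fit was made with limma (version 3.58.1, in R 4.3.3) with trend on log2(TPM + 1), with 1 mean per group over all 15 libraries and 11 residual degrees of freedom. Each of the 5 contrasts was adjusted by Benjamini-Hochberg over these genes, with 0.05 as the threshold of a call. The script was tested on simulated data. ± beside a log2 difference is the SE. Scaling divided each library by its median ratio to the geometric mean over 815 genes with a mean of 50 TPM or more in every group and no value of 0.

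The members, the gene lists and the alternatives were chosen with earlier results of these data known. Named genes are the 6 members, the IL-2 receptor list, Dock8 and Foxp3, the last 2 whether called or not. Called list members with the smallest p are named too, up to 4 a list, or 2 where none was called. Lists of 8 or fewer genes could be named in full. For each member the 3 most correlated genes averaging 20 TPM or more could be named. Predicted genes, RIKEN clones, pseudogenes, microRNAs and receptor segments were left out of these. Bcl6 was named after its value was seen, as the only STAT5 target called lower. The 4 libraries left out for their share of predicted genes were chosen after seeing the data. Promoters are RefSeq's, on GRCm38.p6. Some genes and results that these rules would allow are not reported here.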

Additional observations from a re-analysis of the deposited data

Results flagged for a closer look

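The 6 members and 2 library measures were examined in the 2 unstimulated groups, 16 sets of values in all, for an extreme library whose gap to its neighbour exceeded Dixon's limit, and 2 values did so. Both belong to unstimulated WT library 3. Socs3 had 4.88 TPM there, against 1.86 to 2.00 TPM in the other unstimulated WT libraries. Pim2 had 33.0 TPM there, against 7.89 to 9.36 TPM in the others. Without this library, KO against WT at rest was -0.33 for Socs3 and -0.47 for Pim2, beside -0.59 and -0.91 with it. Chance flags about 1 in 20 groups. Library 3 also had the smallest share of TPM in predicted genes among the unstimulated libraries, 18.7%, and the part of that share in the 2 values was not tested.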

How the results depend on the processing

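Alternatives were pseudocounts of 0.1 and 5 TPM, no filter, a filter of 5 TPM, quantile normalization, median-ratio scaling, scaling to abundant genes, array weights, the replicate block by title number, only the groups compared, leaving out unnumbered libraries, each library left out in turn, and, added after seeing the data, no unstimulated KO library over 40% in predicted genes. The cause of the changes below was not tested. Cish kept its bead call in 18 of 18 alternatives in WT and 20 of 20 in KO, Socs2 in 18 of 18 in WT. Bead calls were lost in WT for Socs1 in 1 and Pim2 in 9 of 18 (limma adjusted p 0.00671 to 0.140), and in KO for Socs1, Socs2 and Pim2 in 4 of 20 each. With only the groups compared, these KO calls had adjusted p of 0.0538, 0.0534 and 0.0816. No member was called between genotypes or for the difference of responses in any alternative.

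The labels do not say whether libraries with the same title number share a mouse. Deviations of same-numbered libraries from their group means correlated at -0.063 to 0.043 over 4284 genes. The groups are small and the deviations of the 2 KO bead libraries mirror each other, so these correlations cannot decide whether samples were paired. The replicate block gave 1 gene called for KO against WT without beads, 0 for the difference and 933 for beads in KO, took Socs2 in KO to 1.75 (adjusted p = 0.0960), and put Cish at 0.0008 and Socs3 at 0.050 without beads. It moved Socs1 to -2.79 and Pim1 to -1.52 without beads, Pim2 with beads in KO to 4.85 and the Pim2 difference between responses to 2.57. The KO and WT bead libraries share no number, so no block could be fitted there.

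Directions turned as follows. Without beads, Socs2 was 0.065 by quantile normalization, Cish 0.045 and Socs2 0.15 with scaling to abundant genes, and Cish 0.59, Socs2 0.19 and Pim2 0.13 without the KO libraries high in predicted genes, where Pim2 was -0.22 for the difference. For the difference Socs1 was 1.26 with a pseudocount of 0.1 and 0.63 without unnumbered libraries. With single libraries left out, ranges that crossed 0 were -0.52 to 0.050 for Cish without beads, -1.26 to 0.29 for Cish and -0.60 to 0.41 for Pim2 with beads, -0.13 to 1.11 for Socs3 with beads in KO, and -0.999 to 0.56 for Cish and -0.37 to 0.38 for Socs1 for the difference.

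Counts of genes called also moved. For KO against WT without beads (22) they were 8 and 13 with pseudocounts of 0.1 and 5, 7 by quantile normalization, 6 by median-ratio scaling, 8 with scaling to abundant genes, 4 with only the groups compared, 5 with array weights, 44 without unnumbered libraries, 11 without the KO libraries high in predicted genes, and 5 to 67 with single libraries left out. With beads (1) they were 2 and 0, 0 with scaling to abundant genes, 15 with the groups compared, 19 with weights, 2 without unnumbered libraries, and 0 to 3. For beads in WT (3366) they were 2097 by quantile normalization, 6042 with weights and 1650 to 3380. For beads in KO (2431) they were 1198 with the groups compared, 3961 with weights, 995 without the high KO libraries and 380 to 2703. For the difference (1) they were 3 and 0 with the pseudocounts, 2 with the 5 TPM filter, 0 by quantile normalization, 2 by median-ratio scaling, 0 with scaling to abundant genes, 5 with weights, 5 without unnumbered libraries, 4 without the high KO libraries and 0 to 6.

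Scaling to abundant genes moved the split of calls for beads in KO from 646 lower and 1785 higher to 1835 and 1274. Median-ratio scaling gave 617 lower and 2547 higher for beads in WT, against 1988 and 1378. TPM keep no depth, so low values such as those of Socs3 carry an unknown counting error.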
